A study of Mus musculus with 6 samples.

Results

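The named small nucleolar RNAs (snoRNAs) of exosomes from 2 kinds of cultured mouse skin cell are described here by box class. Members were chosen by their names and their reads: RNAs named Snord (box C/D), Snora (box H/ACA) or Scarna (small Cajal body RNAs) were taken where they had 10 or more reads summed over the 6 libraries. Of 16310 RNAs listed per library, 146 carried such a name and 74 met the minimum, namely 50 of 97 Snord, 18 of 40 Snora and 6 of 9 Scarna RNAs. The other 72 stayed below it, 29 of them with no read. Just inside the minimum were Snord66 with 10 reads, Snora47 with 10.25 and Snord35b with 10.44, and just outside it Snord34, Snord11 and Snord70 with 9 each. A rare RNA met the minimum through whichever group held its reads, so counts over all 74 are descriptions.

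Exosomes, the small vesicles that cells release, were collected from the medium of epidermal stem cells (ESC) and of dermal fibroblasts (Fb), with 3 libraries each that the labels call biological replicates. ESC came from the dorsal skin of C57BL/6 mice aged 3 weeks in the resting phase of the hair cycle and grew in serum-free keratinocyte medium on collagen IV. Fb came from the dorsal skin of db/db mice, which are obese and diabetic, aged 14 weeks. They grew in DMEM with 10% FBS, then for 2 days in serum-free medium before collection. The strain given for all 6 libraries is C57BL/6, which leaves the db/db genotype to the protocol text alone. The groups thus differ at once in cell type, mouse genotype, age and medium, which cannot be told apart. Nothing ties a library to one animal, so the p-values reflect only how far these libraries vary, which may be technical.

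Box C/D snoRNAs guide the addition of methyl groups to the ribose of ribosomal RNA (rRNA), and box H/ACA snoRNAs guide the change of uridine to pseudouridine. Small Cajal body RNAs do the same for the RNAs of the splicing machinery. A few snoRNAs, such as U8 (Snord118), U14 (Snord14), U22 (Snord22) and U17 (Snora73), are known for a part in cutting the rRNA precursor, and most mammalian snoRNAs are released from the introns of host genes, many of which encode ribosomal proteins.

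The members on which the results turn are shown with those letters of their class that were found in set windows. Sequences are those of GENCODE M21 transcripts on GRCm38, 5′ to 3′, and capitals mark TGATGA within the first 25 bases (box C), CTGA within the last 20 bases (box D) or ACA within the last 8 bases, searched on the RNA's own strand. Snora41 lies at chr1:63179004-63179135 (plus strand), in an intron of Eef1b2, which encodes a translation elongation factor subunit. Snora44 (chr4:132309941-132310069, plus strand) and Snord99 (chr4:132310691-132310764, plus strand) both lie in Snhg12, a non-coding host gene, where each overlaps an exon of at least one annotated transcript. Snora7a (chr6:115807975-115808114, minus strand) overlaps an exon of Rpl32, Snord87 (chr1:9942463-9942549, minus strand) lies in an intron of Snhg6 and Snord73a (chr3:86138791-86138858, minus strand) in an intron of Rps3a1. Snord104 (chr11:106500993-106501062, plus strand) and Snord118 (chr11:69073427-69073561, plus strand) lie in no other annotated gene on their strand.
Snora41: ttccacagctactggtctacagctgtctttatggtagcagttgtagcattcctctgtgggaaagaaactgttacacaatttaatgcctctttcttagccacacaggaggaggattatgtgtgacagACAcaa
Snora44: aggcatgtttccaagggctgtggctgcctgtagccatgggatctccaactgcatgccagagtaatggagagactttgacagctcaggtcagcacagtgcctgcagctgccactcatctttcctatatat
Snora7a: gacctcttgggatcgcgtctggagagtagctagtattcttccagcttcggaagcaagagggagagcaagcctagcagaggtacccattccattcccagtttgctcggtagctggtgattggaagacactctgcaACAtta
Snord104: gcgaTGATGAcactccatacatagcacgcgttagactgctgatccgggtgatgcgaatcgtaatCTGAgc
Snord87: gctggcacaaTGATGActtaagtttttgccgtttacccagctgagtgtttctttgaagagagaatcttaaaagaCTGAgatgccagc
Snord99: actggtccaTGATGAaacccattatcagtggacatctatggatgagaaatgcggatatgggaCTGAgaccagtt
Snord73a: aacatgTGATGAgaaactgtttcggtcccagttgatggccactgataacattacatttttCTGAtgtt
Snord118: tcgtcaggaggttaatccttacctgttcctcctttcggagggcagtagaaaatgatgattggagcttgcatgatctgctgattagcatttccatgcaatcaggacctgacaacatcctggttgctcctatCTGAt
Both box C and box D letters were present in these windows in 37 of the 50 box C/D members (74%), and box D letters, with or without box C, in 49. Snord118 holds TGATGA only beyond the first 25 bases, so these letters are not in capitals and Snord118 is not among the 37. The ACA end was present in 16 of the 18 box H/ACA members (88.9%), and Snora44, which has no ACA in that window, was one of the 2 without it. Among 4004 other annotated small RNAs of 60 to 200 bases, 0.0250% held both C/D motifs, 6.92% held CTGA and 12.1% held ACA in these windows. Box C/D members were 64 to 148 bases long (median 78) and box H/ACA members 121 to 205 bases (median 133). In all, 70 members lay inside another gene on the same strand, 20 of them in ribosomal protein genes. Of these 70, 28 lay in introns of every annotated transcript and 42 overlapped an exon of at least one transcript.

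Reads assigned to RNAs numbered 9894485 to 11149046 per ESC and 6914504 to 8691350 per Fb library. tRNA genes took 78.7% to 79.9% of them in ESC and 80.5% to 89.6% in Fb libraries, so values are given as reads per 1000000 (RPM) of all reads and, as a second scale, RPM of reads outside tRNA genes (2037742 to 2243038 in ESC and 831002 to 1690505 in Fb libraries). Both are shares of reads, so fewer snoRNA molecules and more of other RNAs cannot be told apart. A floor of 3 reads stood at 0.269 to 0.303 RPM of all reads in ESC and 0.345 to 0.434 in Fb libraries. Epithelial miRNA markers (6 of 6 detected) summed to 57484 to 71340 RPM of miRNA reads in ESC and 7271 to 13695 in Fb exosomes, and fibroblast markers (5 of 5 detected) to 174 to 209 and 192820 to 299230. Muscle markers lay between 123 and 161 in ESC, against 466 to 1713 in Fb exosomes, and blood or serum markers at 7.44 to 9.85 and 25.3 to 75.8, with miR-142a-3p at 0 throughout. Their part in the snoRNA results was not tested.

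Fb replicate 1 stood apart from the other Fb libraries. Across the snoRNAs, the Pearson correlation of log2 values was 0.927 between Fb replicates 2 and 3 but 0.644 and 0.679 between each of these and replicate 1, against 0.941 to 0.955 between ESC libraries. These correlations are across genes, which are not independent replicates. Fb replicate 1 had the largest tRNA share. It had 3260 RNAs with 10 or more reads, near the 3280 to 3581 of the ESC libraries, against 952 and 1180 in the other Fb libraries. It also had the highest value of the Fb libraries in 40 of 50 box C/D and 8 of 18 box H/ACA members in RPM of all reads. Outside tRNA genes these counts were 45 and 11. The same count was not made over all RNAs, so these counts cannot be set against the series. The sum of the muscle markers in Fb replicate 1 stood apart too, at 1713 RPM of miRNA reads against 466 and 556. Within that sum, miR-1a-3p was at 1081 against 5.62 and 0, and miR-133a-3p at 286 against 28.1 and 67.4. The remaining marker, miR-206-3p, went the other way, at 347 against 432 and 488. The part of these markers in the snoRNA values was not tested. Class sums and counts that change without it, and ratios that move by over 1.5 times, are given both ways.

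Box H/ACA snoRNAs took a larger share of reads in ESC exosomes, and 1 gene, Snora41, made up that difference. In RPM of all reads, the 18 members summed to 292, 276 and 370 in ESC and to 27.3, 37.2 and 43.3 in Fb libraries. Every ESC library was above every Fb library, with means of 313 ± 50.4 and 35.9 ± 8.11 (SD, n = 3 each), a ratio of 8.70 (exact two-sided permutation p = 0.1, the smallest that 3 against 3 allows, and 0.14 adjusted over 7 class comparisons). In RPM of reads outside tRNA genes the sums were 1510 ± 200 and 244 ± 46.6, a ratio of 6.18 with the same exact permutation p of 0.1. With mature miRNAs also left out of the total they were 4703 ± 808 and 269 ± 50.8, a ratio of 17.5.

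Snora41 had 2552, 2735 and 3466 reads in ESC but 30, 41 and 51 in Fb libraries. Its reads were 83.3% of all box H/ACA reads and 48.9% of the reads of all 74 members. In RPM of all reads this was 258, 245 and 334 in ESC against 3.75, 4.72 and 7.38 in Fb exosomes, with means of 279 ± 48.1 and 5.28 ± 1.88 (SD, n = 3 each), a ratio of 52.8. The lowest ESC value was far above the highest Fb value, and outside tRNA genes the ratio was 37.5. Of the snoRNA reads of a library, Snora41 held 61.8% (exact 95% binomial interval 60.3 to 63.2), 62.2% (60.7 to 63.6) and 65.8% (64.5 to 67.1) in ESC. In Fb exosomes it held 1.43% (0.969 to 2.04), 3.22% (2.32 to 4.34) and 5.18% (3.88 to 6.76), intervals that cover counting error only. This share needs no total outside the snoRNAs. Relative to length, Snora41 ranked 1 among the 74 members in ESC exosomes, at 2115 RPM of all reads per kb, and 13 in Fb exosomes, at 40.0. A near copy on chromosome 3, Gm23723, is 97.7% identical and had at most 0.000739 reads in any library.

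**Figure D1:**
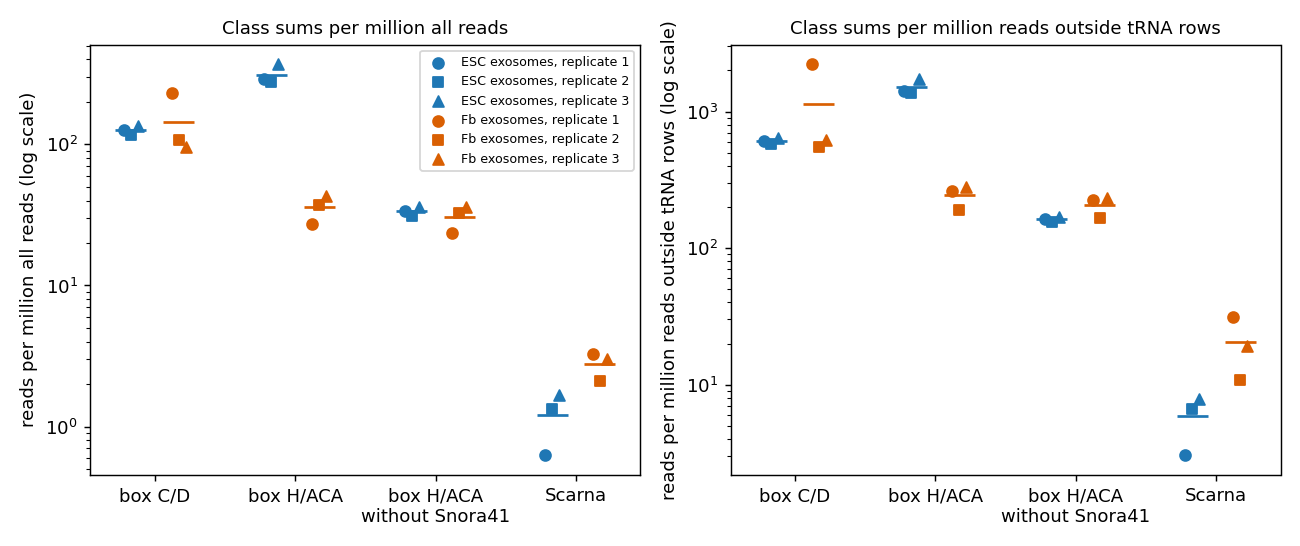
Sums over the members of each class per library, in RPM of all reads (left) and in RPM of reads outside tRNA genes (right), on log axes; symbols are libraries and bars are group means. The ESC and Fb libraries are separate for box H/ACA and overlap once Snora41 is left out, in RPM of all reads at 33.6 ± 2.47 and 30.7 ± 6.42, while for box C/D Fb replicate 1 lies apart at 231.

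Without Snora41, the other 17 box H/ACA members summed to 33.6, 31.2 and 36.1 RPM of all reads in ESC and to 23.5, 32.5 and 36 in Fb libraries, and the groups overlapped (33.6 ± 2.47 and 30.7 ± 6.42, exact permutation p = 0.6). Outside tRNA genes the direction turned, at 163 ± 7.33 in ESC and 208 ± 35.8 in Fb exosomes (exact permutation p = 0.2), and the groups overlapped there too. The share of box H/ACA among the reads of both box classes was 71.1% ± 1.78 in ESC and 22.5% ± 10.7 in Fb exosomes (exact permutation p = 0.1, adjusted 0.14). Without Snora41, an alternative added after the data were seen, it was 21.1%, 21.1% and 21% in ESC and 9.23%, 23.3% and 27.3% in Fb libraries (exact permutation p = 1). The ESC libraries then lay inside the range of the Fb libraries.

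**Figure D2:**
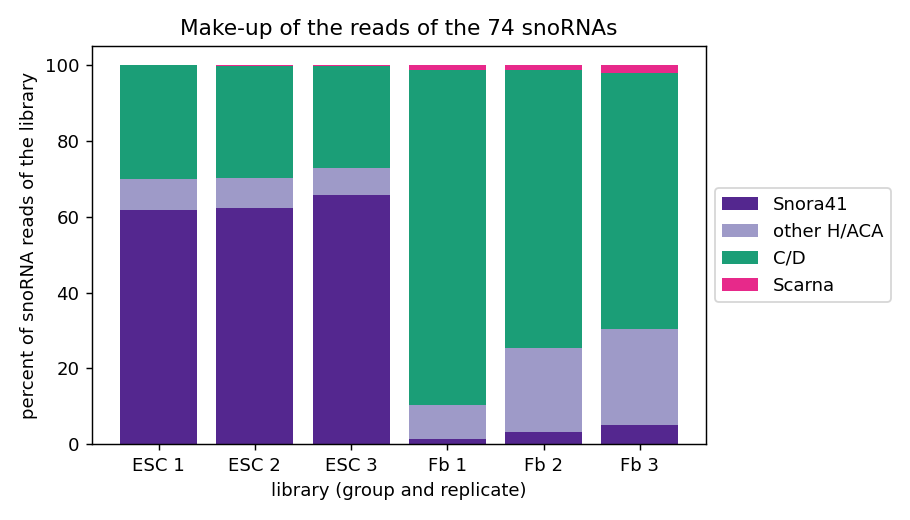
Make-up of the snoRNA reads in each library in percent; each bar is 1 library and its segments are Snora41, the other box H/ACA members, box C/D members and Scarna RNAs. Snora41 fills 61.8% to 65.8% of the ESC bars and 1.43% to 5.18% of the Fb bars, and box C/D 26.7% to 30.1% and 67.4% to 88.3%.

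Among the other box H/ACA members, Snora44 was higher in ESC and Snora7a and Snora73a in Fb libraries by RPM. Snora44 had 21, 19.7 and 24.8 RPM of all reads in ESC and 3.50, 7.36 and 5.42 in Fb libraries, a ratio of 4.02. Snora7a had 3.34, 1.25 and 2.00 in ESC and 4.38, 13.7 and 23.6 in Fb libraries, a ratio of Fb over ESC of 6.33, or 4.12 without Fb replicate 3. Snora73a, the U17 RNA, had 0.775, 0.768 and 0.482 in ESC and 4.00, 2.75 and 1.69 in Fb libraries. The groups did not overlap for these 3 RNAs on either scale. Snora73a shares 96.6% of its letters with Snora73b, so reads could be divided between them, and Snora73b was at 0.275, 0.321 and 0.598 in ESC and 2.41, 0.843 and 0.305 in Fb libraries, where the groups overlapped. Snora81 was at 1.52, 0.897 and 1.16 in ESC and 1.88, 1.38 and 1.30 RPM of all reads in Fb libraries, and outside tRNA genes at 7.36, 4.46 and 5.43 and at 18.1, 7.10 and 8.39. The groups overlapped on both scales. Its fitted log2 fold change with all RNAs was -1.90 (SE 0.70, edgeR adjusted p = 0.126), and it passed with DESeq2 (-2.01, adjusted p = 0.0221) and without Fb replicate 1 (-2.53, edgeR adjusted p = 0.0112). Snora78 was at 1.67, 3.14 and 1.33 in ESC and 0.0229, 1.50 and 1.01 RPM of all reads in Fb libraries, and the groups overlapped.

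Box C/D snoRNAs as a class overlapped between the groups. In RPM of all reads they summed to 126, 117 and 136 in ESC and to 231, 107.1 and 95.9 in Fb libraries (126 ± 9.55 and 145 ± 75.1, exact permutation p = 1). Outside tRNA genes the sums were 609, 580 and 637 against 2225, 551 and 618 (609 ± 28.9 and 1131 ± 948, exact permutation p = 0.8). The higher Fb mean rested on replicate 1: without it the ratio of ESC over Fb was 1.24 RPM of all reads and 1.04 outside tRNA genes. It also turned when mature miRNAs, which held 65.9% to 69.0% of the reads outside tRNA genes in ESC and 5.90% to 11.1% in Fb libraries, were left out of the total as well, at 1894 ± 178 in ESC and 1225 ± 988 in Fb exosomes (exact permutation p = 0.4).

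The class sum held different leading RNAs in each group. Snord87, Snord104 and Snord99, all guides of rRNA methylation, were the leading 3 in each ESC library and together held 52.3% to 54.1% of its box C/D reads. Snord118 held 28% and 28.3% of box C/D reads in Fb replicates 2 and 3, but 0.974% in replicate 1 and 0.302% to 0.462% in ESC libraries. In Fb replicate 1 Snord99 led with 30.5%, against 4.08% and 9.65% in the other Fb libraries. Snord73a held 10.6% to 18% in Fb and 2.56% to 3.70% in ESC libraries.

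Snord87 was at 28.5, 23.8 and 31.0 RPM of all reads in ESC and 4.50, 0.690 and 3.62 in Fb libraries, a ratio of 9.46. Snord104 was at 24.1, 24.5 and 23.4 in ESC and 14.4, 8.74 and 6.80 in Fb libraries, a ratio of 2.40. Both were higher in every ESC library, but outside tRNA genes Fb replicate 1 reached 138 for Snord104 and the groups overlapped, while Snord87 stayed separate. Snord69, in the gene of the nucleolar protein Gnl3, was at 9.10, 7.18 and 7.81 in ESC and 3.25, 4.49 and 3.75 in Fb libraries, and Snord12, in the non-coding gene Zfas1, at 1.11, 1.51 and 1.34 in ESC and 0.50, 0.115 and 0 in Fb libraries. These groups did not overlap on either scale. Snord83b, in Rpl3, was at 4.85, 5.83 and 3.35 RPM of all reads in ESC and 5.25, 2.99 and 1.59 in Fb libraries, where Fb replicate 1 lay within the ESC range and the groups overlapped.

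Snord118, the U8 RNA needed for the large ribosomal subunit, had 3.75, 6 and 5.42 reads in ESC and 18, 261 and 188 in Fb libraries. In RPM of all reads it was at 0.379, 0.538 and 0.522 in ESC and 2.25, 30.0 and 27.2 in Fb libraries, a ratio of Fb over ESC of 41.3. Every Fb library was above every ESC library, with replicate 1 far below the other Fb libraries. Snord73a was at 4.65, 3.95 and 3.47 in ESC and 41.5, 11.4 and 12.3 in Fb libraries, a ratio of 5.40 with replicate 1 highest, or 2.94 without it. Snord99 was at 13.1, 13.9 and 18.9 in ESC and 70.5, 4.37 and 9.26 in Fb libraries, so it was below every ESC library in Fb replicates 2 and 3 and above them in replicate 1.

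**Figure D3:**
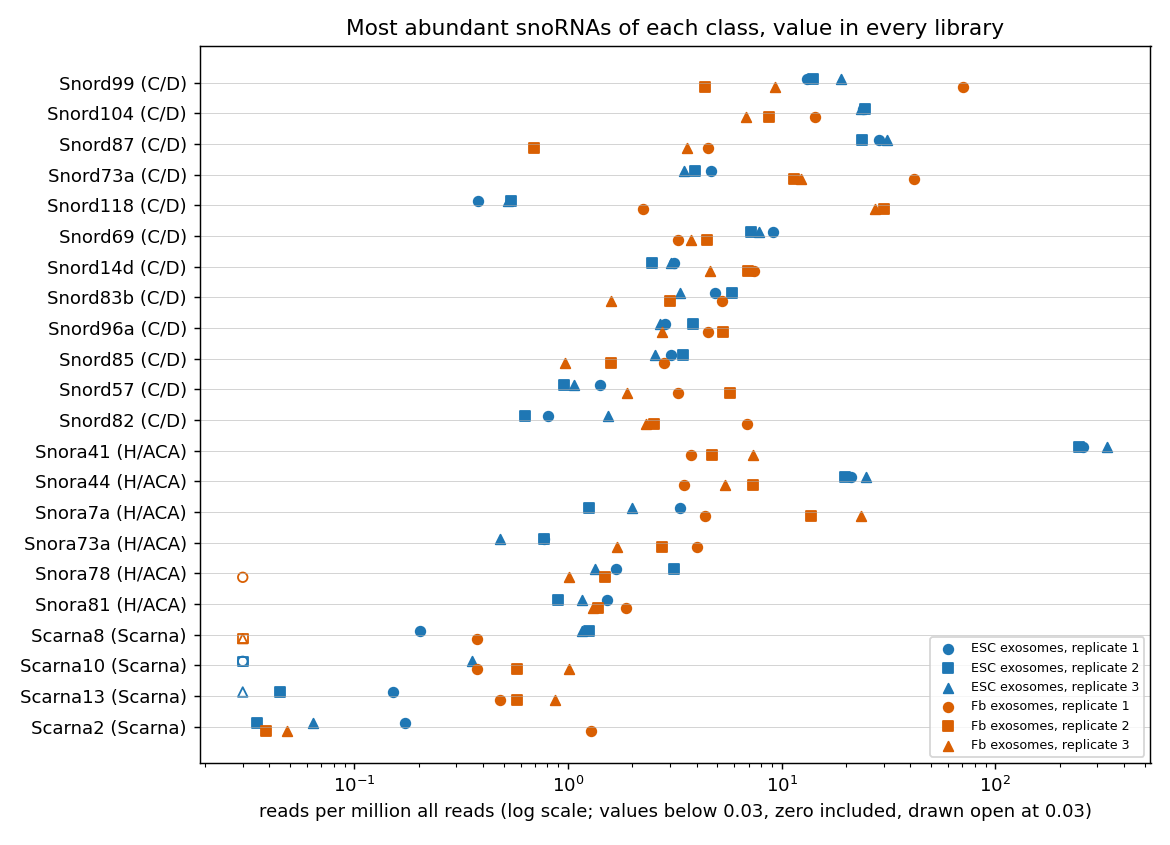
RPM of all reads (log axis) of the most abundant members of each class, 1 symbol per library, with values below 0.03 drawn open at 0.03. The ESC symbols of Snora41 lie at 245 to 334 and its Fb symbols at 3.75 to 7.38, Snord118 lies the other way at 0.379 to 0.538 and 2.25 to 30.0, and the Fb symbols of Snord99 spread from 4.37 to 70.5.

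Snord14c and Snord14d, copies of U14, differed in opposite directions. They lie at chr9:40803583-40803668 and chr9:40803995-40804080 (plus strand) in Hspa8, which encodes a chaperone, and are 97.7% identical. With positions counted from 1 at the 5′ end, Snord14d and then Snord14c read A47G and G49A. They are shown here with capitals at these 2 differences, the only ones between them.
Snord14d: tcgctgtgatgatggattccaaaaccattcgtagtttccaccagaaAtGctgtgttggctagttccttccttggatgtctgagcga
Snord14c: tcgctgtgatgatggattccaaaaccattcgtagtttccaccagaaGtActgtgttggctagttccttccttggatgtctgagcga
Snord14d was at 3.12, 2.47 and 3.05 RPM of all reads in ESC and 7.41, 6.93 and 4.62 in Fb libraries. Snord14c was at 2.24, 2.47 and 3.89 in ESC and 0.850, 0.779 and 0 in Fb libraries. Neither overlapped between the groups on either scale. Their split depends on how reads that match both were divided, which the sources used here do not give, so the single values are uncertain. Their sum overlapped between the groups in RPM of all reads, at 5.36, 4.93 and 6.93 in ESC and 8.26, 7.71 and 4.62 in Fb libraries. Snord14d held 58.2%, 50% and 43.9% of that sum in ESC and 89.7%, 89.9% and 100% in Fb libraries.

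The Scarna RNAs were rare, with 104 reads over all libraries. They summed to 0.628, 1.34 and 1.67 RPM of all reads in ESC and to 3.26, 2.11 and 2.99 in Fb libraries, and every Fb library was above every ESC library (1.21 ± 0.534 and 2.79 ± 0.601, exact permutation p = 0.1, adjusted 0.14). Outside tRNA genes the sums were 5.85 ± 2.50 and 20.5 ± 10.3 (exact permutation p = 0.1), a ratio of Fb over ESC of 3.50. With mature miRNAs also left out of the total the groups overlapped, at 18.2 ± 7.93 and 22.4 ± 10.6, a ratio of 1.23 (exact permutation p = 0.6). Scarna8, the most abundant, went the other way, with 2, 14 and 12 reads in ESC and 3, 0 and 0 in Fb libraries, and at a minimum of 30 reads it was the only Scarna RNA left. Scarna10 had 0, 0 and 3.67 reads in ESC and 3, 5 and 7 in Fb libraries, and Scarna13 had 1.5, 0.5 and 0 and 3.83, 5 and 6. Scarna2 had 10.2 reads in Fb replicate 1 and under 2 in each other library. Each single Scarna RNA was near the floor of 3 reads in most libraries.

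Over all 74 snoRNAs, 32 (43.2%) did not overlap between the groups in RPM of all reads, against 24.2% of the 7114 RNAs of the series with 10 or more reads. Of these, 12 were higher in every ESC library, where the series had 19.2%, and 20 were higher in every Fb library, where the series had 5.03%. Outside tRNA genes 32 again did not overlap (series 14.2% of 6801), 10 of them higher in every ESC library (series 9.69%) and 22 higher in every Fb library (series 4.53%). The median log2 ratio of ESC over Fb was -0.39 over the snoRNAs and 0.81 over all RNAs in RPM of all reads, and -1.04 and -0.01 outside tRNA genes. At a minimum of 30 reads, 19 of 47 snoRNAs did not overlap in RPM of all reads (series 26.9%) and 19 outside tRNA genes (series 16.2%), and 17 of these were the same RNAs.

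By class, 6 of 50 box C/D members were higher in every ESC library and 13 in every Fb library in RPM of all reads, and 31 overlapped. The series had 19.2% and 5.03% in these directions. Of 18 box H/ACA members, 6 were higher in ESC, 3 in Fb and 9 overlapped, and of 6 Scarna RNAs 4 were higher in Fb libraries and 2 overlapped. The median log2 ratio was -0.42 for box C/D and 0.47 for box H/ACA members, and -1.05 and 0.04 outside tRNA genes. Without Fb replicate 1, 47 of the 74 did not overlap, 26 higher in ESC and 21 in Fb libraries. The series had 80.5% for both directions together, and its shares by direction were not counted. Outside tRNA genes 47 snoRNAs again did not overlap, where the series had 74.2% for both directions together. The share of snoRNAs for both directions together was thus below that of the series on both scales.

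**Figure D4:**
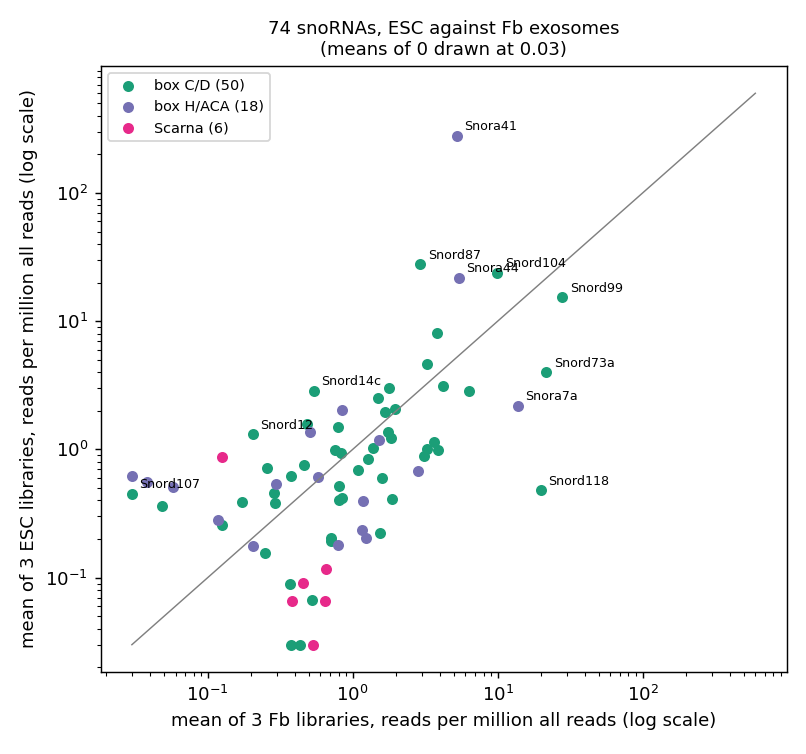
Mean of the 3 ESC libraries against the mean of the 3 Fb libraries for each of the 74 snoRNAs, in RPM of all reads on log axes, with means of 0 drawn at 0.03 and the line of equal values in grey. Snora41 lies above the line at 279 against 5.28, Snord118 below it at 0.480 against 19.8, and box C/D members lie on both sides.

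In a fit of all RNAs by edgeR's quasi-likelihood test with TMM factors and Benjamini-Hochberg adjustment over the 2999 RNAs tested, 30 snoRNAs could be tested (23 box C/D, 7 box H/ACA and no Scarna RNA) and 9 passed an adjusted p of 0.05, where 11.8% of all RNAs tested did. All 9 were higher in Fb exosomes (series 8.17%). Their RNAs were Snord118, Snord73a, Snord57, Snord82, Snord21, Snord49b, Snord14d, Snora7a and Snora73a. In the fit of the RNAs outside tRNA genes 32 were tested and 11 passed, the same 9 with Snord100 and Snord55, where 8.89% of 2960 RNAs passed, and all 11 were higher in Fb exosomes (series 5.74%).

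Snord118 had a fitted ESC over Fb difference of -7.70 on the log2 scale (SE 1.63, edgeR adjusted p = 0.0168). Snord73a had one of -3.66 (SE 0.73, edgeR adjusted p = 0.0160), and Snora7a one of -4.77 (SE 1.20, edgeR adjusted p = 0.0293). Snord57, in the gene of the box C/D core protein Nop56, had one of -3.75 (SE 0.99), and Snord82, in the gene of nucleolin, one of -3.30 (SE 0.67). Snord21, in the ribosomal protein gene Rpl5, followed at -3.14 (SE 0.65). Outside tRNA genes Snord100, in Rps12, stood at -4.84 (SE 1.11, edgeR adjusted p = 0.0245) and Snord55 stood at -3.47 (SE 0.67). Snord55 was at 0.404, 0.538 and 0.289 RPM of all reads in ESC and 3.38, 1.38 and 0.868 in Fb libraries, without overlap. Snord49b passed with all RNAs at -3.11 (SE 0.71), although it overlapped in RPM of all reads, at 0.505, 0.718 and 1.45 in ESC and 5.74, 2.30 and 1.30 in Fb libraries. Snora41 did not pass, at 3.77 (SE 1.13, edgeR adjusted p = 0.0605) and, outside tRNA genes, 3.70 (SE 1.06, edgeR adjusted p = 0.0589). Snord87 did not pass either, at 2.02 (SE 0.70, edgeR adjusted p = 0.104). Snora44, Snord104 and Snord69, whose RPM values were higher in every ESC library, had fitted log2 fold changes of -0.14 (SE 0.92), -0.40 (SE 0.76) and -0.92 (SE 0.81).

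These calls depended on the scaling between libraries. TMM factors were 1.62 to 1.63 in ESC libraries and 2.18, 0.231 and 0.463 in Fb replicates 1 to 3. Scaling by library totals alone moved the median log2 fold change of all RNAs from 0.07 to 0.81. It then left 3 snoRNAs past the edgeR threshold (series 11.7%), with Snora41 (5.72, SE 0.77, edgeR adjusted p = 7.40e-04) and Snord87 (3.24, SE 0.93, edgeR adjusted p = 0.0433) higher in ESC and Snord118 (-5.34, SE 1.17, edgeR adjusted p = 0.0122) higher in Fb exosomes. Outside tRNA genes library totals alone left 2, Snora41 and Snord118 (series 6.49%). Only Snord118 passed on both tables under both scalings, with the direction the same in each.

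DESeq2 called 14 snoRNAs in the fit of all RNAs (series 18.1%), 2 higher in ESC and 12 in Fb exosomes, and 17 outside tRNA genes (series 14.9%). Without Fb replicate 1, edgeR called 15 (1 higher in ESC and 14 in Fb exosomes, series 17.3%) and outside tRNA genes 16 (series 14.7%). Snora41 passed in each of these 4 fits, with log2 fold changes of 3.22 to 3.74. Snord87 passed with DESeq2 at 2.02 (DESeq2 adjusted p = 0.00413) and, outside tRNA genes, 1.96 (DESeq2 adjusted p = 0.00599). Without Fb replicate 1 Snord87 did not pass (edgeR adjusted p = 0.0931 and, outside tRNA genes, 0.0903). Without any 1 of the ESC libraries, or without Fb replicate 3, edgeR called 0 snoRNAs and 0 of all RNAs in the fit of all RNAs, with 17 or 18 snoRNAs at an unadjusted p under 0.05, against 16 with all libraries.

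**Figure D5:**
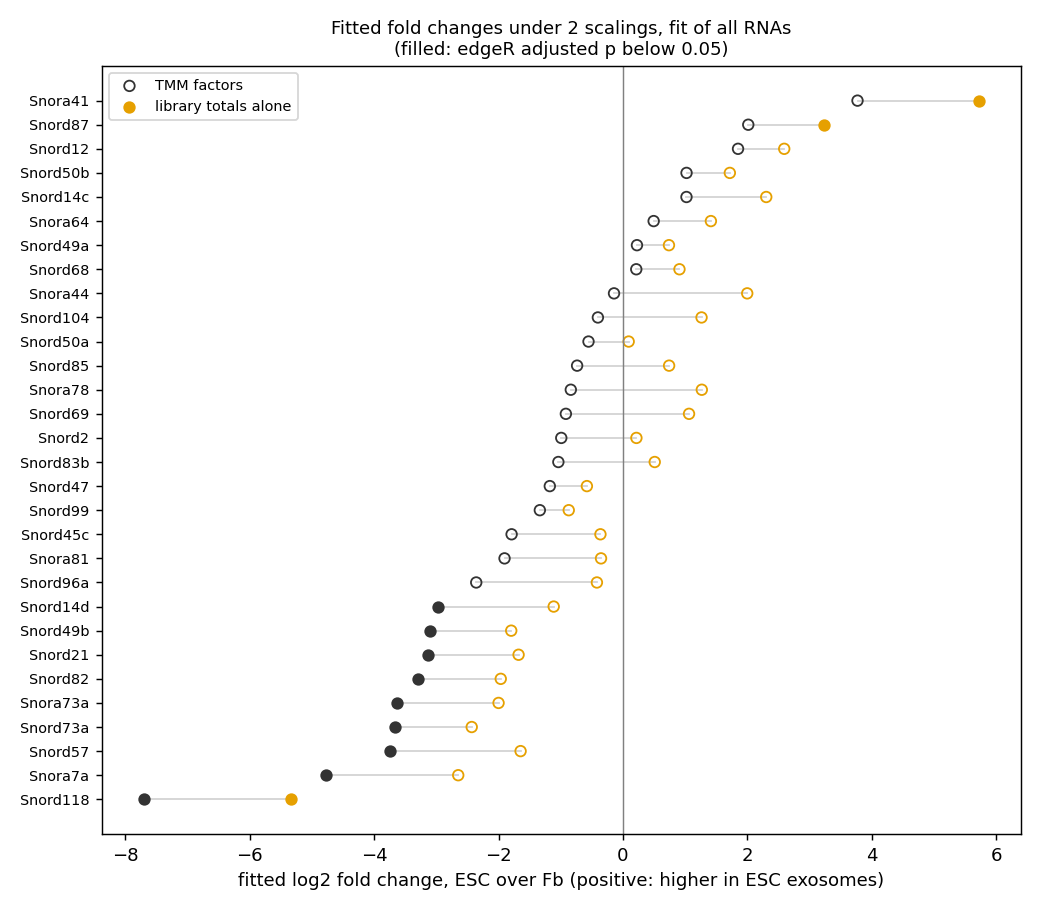
Fitted log2 fold changes of ESC over Fb (horizontal axis) of the 30 snoRNAs tested with all RNAs, under TMM factors and under library totals alone, with filled symbols for an edgeR adjusted p below 0.05. Library totals move the symbols to the right, so that Snora41 and Snord87 pass there and 8 of the 9 RNAs that pass with TMM factors do not, while Snord118 passes under both.

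Of 12 listed snoRNAs known for a part in cutting the rRNA precursor, 10 were among the RNAs of the series and 8 had 10 or more reads. Of these 8, 1 (Snord14c) was higher in every ESC library, 3 (Snord118, Snord14d and Snora73a) in every Fb library and 4 overlapped, on both scales. The places of Snord14c and Snord14d rest on the uncertain split of reads between them. Reads could likewise be divided between Snora73a and Snora73b. Over the series 19.2% and 5.03% were higher in every ESC and every Fb library in RPM of all reads, and 9.69% and 4.53% outside tRNA genes. Snord22, the U22 RNA, was at 0.202, 0.987 and 0.868 in ESC and 0.876, 1.96 and 0.434 RPM of all reads in Fb libraries. Of 14 snoRNAs often used as references in small RNA quantification, 13 were among the RNAs of the series and 10 had 10 or more reads. Of these 10, 8 overlapped, while Snord87 was higher in ESC and Snord55 in Fb libraries, beside the same series shares. Snord96a, one of them, was at 2.83, 3.86 and 2.70 in ESC and 4.50, 5.29 and 2.75 in Fb libraries, and Snord85 at 3.03, 3.46 and 2.55 and 2.80, 1.60 and 0.964. Both overlapped between the groups. In the fit of all RNAs Snord96a did not pass, at -2.36 (SE 0.84, edgeR adjusted p = 0.112). It passed with DESeq2 (-2.42, DESeq2 adjusted p = 0.00508) and without Fb replicate 1 (-2.87, edgeR adjusted p = 0.00783). Snord85 passed in none of these fits.

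Few listed snoRNAs of the multi-snoRNA host genes had 10 or more reads, and many of the listed names were not among the RNAs of the series. The Rpl13a introns, known from work on lipid stress, gave 2 of 4, Snord32a at 0.404, 0.269 and 0.578 in ESC and 1.35, 0.805 and 0.362 in Fb libraries and Snord33 with 3 to 5 reads in ESC and 7, 0 and 0 in Fb libraries. Gas5, a non-coding host gene that responds to growth arrest, gave 2 of 10, but only 3 of the 10 were among the RNAs of the series. Snord47 was at 1.62, 0.718 and 1.35 in ESC and 4.75, 0.460 and 0.289 in Fb libraries, and Snord80 likewise had its highest value in Fb replicate 1, at 3.63. All 4 overlapped between the groups. Snhg1 gave 1 of 8, Snord22, which was the only 1 of the 8 among the RNAs of the series. Of 19 listed snoRNAs of the imprinted Prader-Willi region only Snord107 had 10 or more reads, with 5, 3 and 6 in ESC and 0 in each Fb library, where the floor was 3 reads.

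Members of the same host gene did not always differ in the same direction. Of 13 host genes or overlapping host pairs with at least 2 members, 2 held members that were separate in opposite directions in RPM of all reads. These were Hspa8, with Snord14c and Snord14d above, and Rps12, with Snord100 higher in every Fb library (ratio of Fb over ESC 6.92) and Snora33 higher in every ESC library. The Hspa8 case rests on the uncertain split of reads between the near-identical Snord14c and Snord14d, whose sum overlapped between the groups. The Rps12 case rests on Snora33 with only 17.1 reads in all. In Rps3 both members, Snord15a and Snord15b, were higher in every Fb library. In Snhg12, Snora44 was higher in every ESC library while Snord99 and Snora16a overlapped. Of the 20 members in ribosomal protein genes, 2 were higher in every ESC and 8 in every Fb library, and of the other 54, 10 and 12, in RPM of all reads, where the series had 19.2% and 5.03%.

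Length was related to direction among box H/ACA members in the sense that longer ones had lower ratios of ESC over Fb, with a Spearman correlation of -0.73 over 17 genes. Among box C/D members it was -0.18 over 48 genes. These are descriptions across genes that share the same 6 libraries. Of the 74 members, 18 had a copy of at least 90% identity elsewhere in the annotation, and 12 had 10 or more reads in every library.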

How the data were processed

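Small RNA libraries of exosomes, 3 of ESC and 3 of Fb, were grouped by their titles. Each deposited file holds estimated counts per annotated RNA, which the authors made with FastQC, cutadapt and the GRCm38 build, per the submitters' processing notes. Which aligner and counter were used, whether strand was used and how multi-matching reads were divided is not given in the sources used here. Of nonzero values, 82.6% to 92.2% were fractional. Per the labels' protocols, pooled libraries were size-selected at 140 to 300 bp on a gel, which limits which snoRNA fragments can appear.

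Counts were divided by all reads or by reads outside 471 tRNA genes. Class sums were tested by exact permutation, two-sided, in scipy 1.17.1 (Python 3.11.15), adjusted by Benjamini-Hochberg over 7 comparisons. Counts rounded to whole numbers went into the quasi-likelihood test of edgeR 4.0.16 (R 4.3.3) with TMM factors and no term but the group, after filterByExpr at 10 counts (minimum) and 15 in total, on all RNAs and on those outside tRNA genes, with Benjamini-Hochberg adjustment over all RNAs tested and a threshold of 0.05. The SE is the size of the log2 fold change over the root of the F statistic. Positive log2 values mean higher in ESC exosomes. The fit was also run on simulated counts drawn from a single mean profile. That run did not cover differences in make-up such as those between these libraries. In it edgeR recovered 59% of 4-fold changes with all RNAs and 63% outside tRNA genes, and 100% of 16-fold changes on both. Positions, host genes and sequences came from GENCODE M21, which held all 74 members.

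RNAs described with values were the 8 box C/D, 6 box H/ACA and 4 Scarna members with the most reads, those past the threshold in either fit, up to 5 per direction with the largest difference among those with 30 or more reads and separate groups on both scales, and up to 3 per list. Others named (Snora16a, Snora33, Snora73b, Snord15a and Snord15b) were picked after their values were seen. The members and lists were chosen with earlier results of these data known. Alternatives were DESeq2 1.42.0, library totals alone, upper-quartile factors, other read minimums and count filters, class sums without the leading member, totals without mature miRNAs, a replicate block, and each library left out once. Reads carry no molecular identifiers, so intervals and floors cover counting error only.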

Additional observations from a re-analysis of the deposited data

How the results depend on the processing

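Box H/ACA sums and shares kept their direction and separation with read minimums of 1 or 30 and with any 1 library left out. The log2 ratio of ESC over Fb of the box C/D sum turned from negative to 0.31 (range with 1 library left out -0.43 to 0.31) in RPM of all reads and to 0.059 (-1.22 to 0.059) outside tRNA genes without Fb replicate 1, and to 0.63 with mature miRNAs also left out of the total. The box H/ACA sum outside tRNA genes turned to -0.36 without the leading member, Snora41. At a minimum of 30 reads, which left only Scarna8, the Scarna sum turned to 2.80 and, outside tRNA genes, 1.81, and 19 of 47 members did not overlap on each scale. The number called by edgeR, 9 with all RNAs and 11 outside tRNA genes, became 14 and 17 with DESeq2, 3 and 2 with library totals alone, 17 and 21 of 74 tested with only a filter of 10 reads (6.41% and 5.84% of all RNAs tested), 3 of 11 and 4 of 12 with a minimum count of 30 (16.2% and 12.8%), and 0 to 15 and 0 to 16 with 1 library left out. With a replicate block it was 4 of 30 and 7 of 32 (5.97% and 5.37% of all RNAs). The labels do not say that a replicate number marks a shared animal, day or batch, so the numbers were not taken as pairs. Deviations of same-numbered libraries from their group means had correlations of -0.017, 0.069 and -0.048 over 7114 RNAs. With 3 libraries per group these cannot settle whether the libraries were paired. Under the block the sign-flip test of the class sums cannot go below an exact permutation p of 0.25. Fitted log2 fold changes of named RNAs that had been negative without passing turned positive, first with all RNAs and then outside tRNA genes. With library totals alone these were Snord104 (1.26 and 0.62), Snord69 (1.06 and 0.57), Snora44 (2.00 and 1.56), Snora78 (1.27 and 1.01), Snord85 (0.74 and 0.10) and, with all RNAs only, Snord83b (0.51). With 1 library left out they ranged from -0.83 to 0.51 and -0.84 to 0.46 for Snord104, -1.46 to 0.16 and -1.48 to 0.13 for Snord69, -0.69 to 1.08 and -0.71 to 1.05 for Snora44, -1.72 to 1.08 and -1.74 to 1.03 for Snora78, -1.24 to 0.21 and -1.26 to 0.16 for Snord85 and -1.46 to 0.034 for Snord83b, each lowest without Fb replicate 1 and highest without Fb replicate 2. Upper-quartile factors turned Snord104 to 0.011 and Snora44 to 0.34 and 0.090, the filter of 10 reads turned Snora44 to 0.30 and 0.26, and the block turned it to 0.60 and 0.52. The causes were not tested. No Scarna RNA met the edgeR filter with all 6 libraries, and with only a filter of 10 reads all 6 were tested and 2 were called on each table.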

Other observations

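RNAs related to the snoRNAs but outside the naming rule were measured as well. The 5 rows named Rnu3, copies of U3, the most abundant box C/D RNA of rRNA processing in most cells, summed to 7.78, 5.28 and 4.67 RPM of all reads in ESC and 21.1, 14.1 and 13.6 in Fb libraries (5.91 ± 1.65 and 16.3 ± 4.16, SD, n = 3 each). Every Fb library was above every ESC library. Rmrp, the RNA of the RNase MRP enzyme that also cuts the rRNA precursor, was at 75.4, 55.5 and 73.6 in ESC and 437, 143 and 202 in Fb libraries, again without overlap.

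Annotated snoRNA-type rows without the 3 name prefixes numbered 1378, of which 83 had 10 or more reads. They summed to 109, 101 and 108 RPM of all reads in ESC and 260, 109 and 108 in Fb libraries, so Fb replicate 1 stood apart there as it did for box C/D members. Terc, the telomerase RNA, which ends in an H/ACA domain, had at most 1 read in any library. Of 16 listed RNAs of the same machinery or hosts, 6 were among the RNAs of the series and 5 had 10 or more reads. Of these 5, 4 overlapped in RPM of all reads and Rmrp was higher in every Fb library, where the series had 5.03%. Outside tRNA genes 2 of the 5 were higher in every Fb library, where the series had 4.53%, and 3 overlapped. No RNA in the files used here was named Snord112, Snord113 or Snord114, the names of snoRNAs of the imprinted Dlk1-Dio3 region, and others of that region without these names were not looked for. Neural miRNA markers summed to 0 to 8.11 RPM of miRNA reads in ESC and 0 to 5.62 in Fb exosomes, and the endothelial marker to 0.676 to 3.94 and 0 to 16.9.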
